A study of Mus musculus with 60 samples.

Results

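Genes of the choroid plexus epithelium, 8 of the 47574 gene entries used, were followed through the 60 brain RNA-Seq libraries of the series. The members, Ttr, Folr1, Kcnj13, Clic6, Otx2, Kl, Slc4a5 and Aqp1, were picked by name and each matched 1 entry. The mice were C57BL-6N, aged 3 months, and carried edited alleles of Htt, the huntingtin gene, made with CRISPR/Cas9. In the Δ12 line the edit deleted sequence within exon 12 and gave an allele meant to be spliced to the shortened HTT isoform, and its groups were labelled +/+, Δ12/+ and Δ12/Δ12. The KO line came from 1 founder in which the intended edit failed and left an exon 12 allele without its splice donor, used as a knockout, and its groups were labelled +/+ and KO/+. Each of the 5 genotypes was labelled cortex and striatum, which gave 10 groups of 6 libraries (3 labelled male and 3 labelled female), and the +/+ mice carried neither allele.

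The labelled tissue did not match the expression of tissue markers in all libraries. Libraries with an FPKM (fragments per length of transcript and per depth of the library) above 100 for Slc17a7, a vesicular glutamate transporter of cortical excitatory neurons, are called cortex-like here and the rest striatum-like. This gave 30 cortex-like libraries with Slc17a7 between 120.8 and 233.8 FPKM and 30 striatum-like libraries between 4.81 and 64.75. Drd2, a dopamine receptor of striatal neurons, was at 0 to 18.48 FPKM in the first set and at 29.38 to 61.81 in the second. Only 30 of the 60 libraries fell into the expression-defined tissue of their label, and in 30 of 60 the Xist and Ddx3y transcripts matched the labelled sex. The cortex-like set held all +/+ and Δ12/+ libraries of the Δ12 line and its Δ12/Δ12 libraries labelled male. The striatum-like set held the whole KO line and the Δ12/Δ12 libraries labelled female. Expression-defined tissue and line therefore cannot be told apart for most genotypes. Estimated depth was 12700000 to 19400000 fragments in the cortex-like and 16400000 to 27500000 in the striatum-like libraries. Htt itself was at 15.4 to 18.1 FPKM in the +/+ and 11.6 to 17.3 in the KO/+ libraries of the KO line. In KO/+ labelled cortex it was at 12.0, 12.0, 12.6, 15.1, 16.0 and 17.3. In KO/+ labelled striatum it was at 11.6, 11.7, 11.8, 16.7, 16.7 and 16.8. Some KO/+ libraries of each labelled tissue lay within the +/+ range, so the label did not go with lower Htt in every library. The comparisons of KO/+ with +/+ below are therefore comparisons of labels.

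The choroid plexus is a folded epithelium in the ventricles of the brain, next to the striatum in the lateral ventricles, and it secretes cerebrospinal fluid. Ttr encodes transthyretin, the thyroid hormone carrier that this epithelium secretes . Folr1 (folate receptor alpha) moves folate into the fluid and Kl (klotho) is a co-receptor for FGF23. Kcnj13 (the potassium channel Kir7.1), Slc4a5 (a sodium bicarbonate cotransporter), Aqp1 (the water channel aquaporin-1) and Clic6 (a chloride intracellular channel protein) belong to its machinery for ion and water transport. Otx2 is a homeodomain transcription factor needed for the development and maintenance of the plexus, and proteins of its class recognise TAATCC or its core TAATC. Aqp1 is also known to be expressed in other cells, including red blood cells.

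Promoter windows were examined for this core because the members moved together, as the values further on show. RefSeq start sites on GRCm38.p6 were matched for 5 members (Kcnj13, Kl, Aqp1, Slc4a5 and, with 4 start sites, Otx2), or 8 windows of 300 bases in all. Clic6 and Folr1 had no window in the source used, and Ttr was left out of the search. TAATC, read on either strand, stood in 3 of the 8 windows, and 22.0% of all 32851 promoter windows of the same length held it. TAATCC, which contains the core, stood in 1 of the 8 windows (Otx2), against 7.06% of all. The 3 windows with the core are shown, as the only searched member windows with a match, from 250 bases before the start to 30 bases after it. The core is in capitals (GATTA where it lies on the opposite strand). They are Kcnj13 (chr1:87394700-87394979, minus strand), Kl (chr5:150952357-150952636, plus strand) and Otx2 (chr14:48665080-48665359, minus strand), each 5′ to 3′ along its gene. A match is a description of the letters in the window.

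Kcnj13: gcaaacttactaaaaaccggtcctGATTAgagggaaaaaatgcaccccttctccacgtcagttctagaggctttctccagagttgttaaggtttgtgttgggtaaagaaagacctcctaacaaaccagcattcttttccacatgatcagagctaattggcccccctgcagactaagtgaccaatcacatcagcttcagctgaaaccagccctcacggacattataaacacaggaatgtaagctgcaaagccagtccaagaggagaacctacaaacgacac
Kl: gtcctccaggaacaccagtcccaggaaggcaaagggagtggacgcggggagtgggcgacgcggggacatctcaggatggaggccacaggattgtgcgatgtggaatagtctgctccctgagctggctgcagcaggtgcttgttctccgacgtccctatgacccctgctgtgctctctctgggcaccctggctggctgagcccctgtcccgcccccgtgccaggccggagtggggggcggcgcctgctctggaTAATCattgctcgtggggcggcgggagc
Otx2: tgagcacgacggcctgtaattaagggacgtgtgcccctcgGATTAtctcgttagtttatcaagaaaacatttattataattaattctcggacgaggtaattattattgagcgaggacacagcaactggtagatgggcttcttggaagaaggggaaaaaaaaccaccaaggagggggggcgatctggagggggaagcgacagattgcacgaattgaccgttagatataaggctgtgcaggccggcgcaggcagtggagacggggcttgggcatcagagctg

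Ttr was the highest member in all 30 striatum-like libraries. There its lowest, median and highest rescaled FPKM (FPKM divided by a scale factor per library) were 29.6, 938 and 2030. In the 30 cortex-like libraries they were 1.34, 6.47 and 364. The 2 ranges overlapped, yet 23 of the 30 striatum-like libraries lay above every cortex-like library. Since the libraries are bulk RNA, more cells of the epithelium in a sample and more RNA per such cell cannot be told apart.

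**Figure D1:**
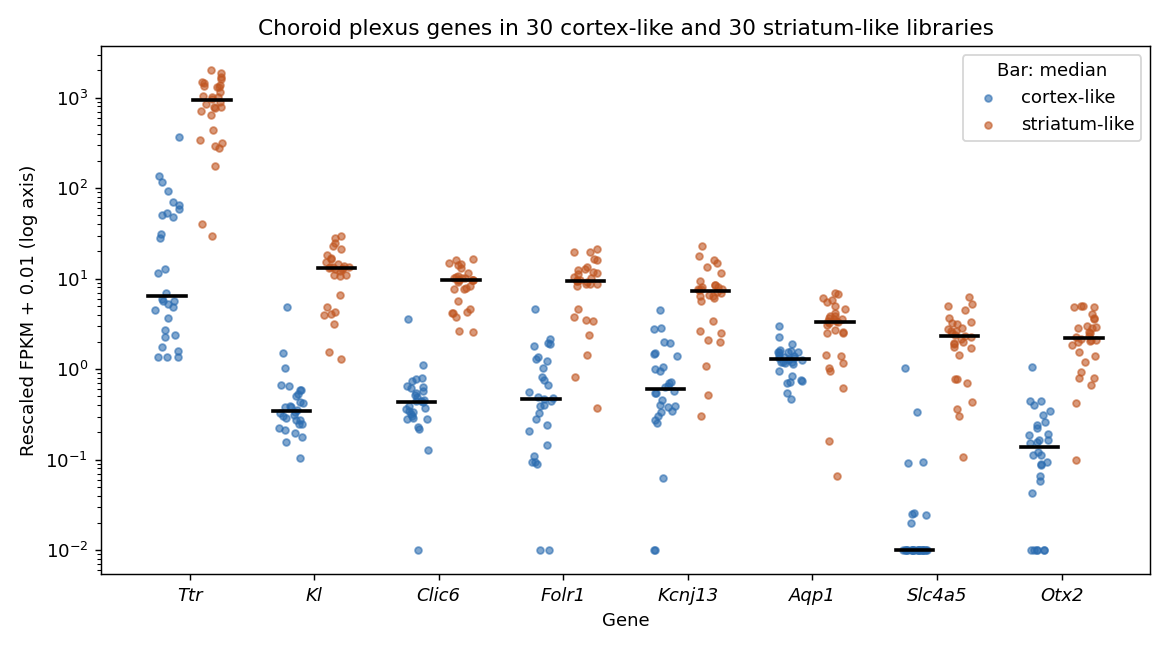
Rescaled FPKM (log axis, with a small offset) of the 8 members, 1 point per library, for the 30 cortex-like and the 30 striatum-like libraries. Bars mark the medians. Ttr spans 1.34 to 364 in the first set and 29.6 to 2030 in the second.

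The next levels in the striatum-like libraries were those of the klotho, channel and folate receptor genes. Kl had a lowest, median and highest rescaled FPKM of 1.28, 13.0 and 29.7, Clic6 of 2.59, 9.60 and 16.3, and Folr1 of 0.366, 9.51 and 21.5. Kcnj13 stood at 0.292, 7.36 and 22.8. Clic6 exceeded Folr1 in 13 of 30 libraries, so that the order of these neighbours was not fixed, while Kl exceeded Clic6 in 25 and Folr1 exceeded Kcnj13 in 27. The remaining members were lower. Aqp1 had values of 0.0555, 3.35 and 7.00, Slc4a5 of 0.0966, 2.30 and 6.31, and Otx2, the transcription factor, of 0.0887, 2.21 and 5.03. Slc4a5 exceeded Otx2 in 12 of 30 libraries, again without a fixed order, and Aqp1 exceeded Slc4a5 in 27.

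In the cortex-like libraries the members other than Ttr had medians of 1.27 or less. Kcnj13 reached 260% and Aqp1 116% of Ttr in single libraries of low Ttr. Aqp1 was the second member here, with a lowest, median and highest rescaled FPKM of 0.461, 1.27 and 3.00, and it exceeded Kcnj13 in 22 of 30 libraries. Kcnj13 had values of 0, 0.593 and 4.53, Folr1 of 0, 0.463 and 4.60, and Clic6 of 0, 0.428 and 3.61. Kl followed at 0.0943, 0.335 and 4.86. The order among Kcnj13, Folr1, Clic6 and Kl was not fixed, since each exceeded the next in 16 of 30 libraries. Otx2 had values of 0, 0.128 and 1.06. Slc4a5 was listed at 0 in 22 of the 30 libraries and reached 1.02. A count of 3 fragments would give Slc4a5 between 0.0188 and 0.0405 FPKM and Otx2 between 0.0258 and 0.0558, depending on the depth of the library. The medians of these 2 members were the nearest to that limit, whereas it was at most 0.0897 for Aqp1 and 0.0252 for Kl, below their lowest values.

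The median of the striatum-like libraries was 145 times that of the cortex-like libraries for Ttr, 38.9 times for Kl, 22.5 times for Clic6 and 20.5 times for Folr1. It was 17.2 times for Otx2 and 12.4 times for Kcnj13, but 2.64 times for Aqp1. These ratios are a description, since the sets differ in line and genotype too. Aqp1 overlapped most, with 18 of 30 striatum-like libraries above all cortex-like ones, and Clic6 least, with 28 of 30. The summed level of 8 endothelial and blood markers, none at 0, was 636 to 1860 in the cortex-like and 164 to 241 in the striatum-like libraries. The haemoglobin gene Hbb-bs led both (medians 800 and 61.8, beside summed medians of 1057 and 200.9), and made up most of the sum only in the cortex-like set. The part of blood RNA in the levels of Aqp1 was not tested.

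Kcnj13 lies inside Gigyf2, a gene on the opposite strand (chr1:87326998-87450796, plus strand, around Kcnj13 at chr1:87386363-87394729, minus strand). Gigyf2 had a median rescaled FPKM of 316 in the cortex-like and 34.2 in the striatum-like libraries. The values of Kcnj13 are uncertain to the extent that reads of Gigyf2 were assigned to it, since the sources used here do not state the strand setting of the quantification. Across libraries the levels of both genes had a Spearman's rho of -0.04 in the cortex-like set (permutation p = 0.84, Pearson's r = 0.00) and of -0.10 in the striatum-like set (permutation p = 0.58, r = -0.04), n = 30 each. Without the 2 libraries farthest from the median of Kcnj13, r was 0.01 and 0.06. Clic6 overlaps the entry 2410124H12Rik on its own strand, and Ttr the entry Gm16090 on the opposite strand. The part of these entries in the values of Clic6 and Ttr was not tested.

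Within the striatum-like libraries the 7 other members rose and fell with Ttr. Over all 15958 genes tested, 1.82% were called as positively correlated with Ttr (Spearman's rho, permutation test with 100000 permutations, Benjamini-Hochberg adjusted p under 0.05). Of the members, 7 of 7 were called, each with an adjusted p of 0.00119 by this permutation test, and the raw p of 1e-05 is the smallest these permutations can give. A labelled cortex and a labelled striatum library with the same line, genotype, sex and number may come from 1 mouse, in which case the 30 libraries are not independent and these p-values are too small. The median rho of all genes with Ttr was -0.03. Among the transporters and channels, rho was 0.98 for Slc4a5, 0.98 for Aqp1, 0.96 for Kcnj13 and 0.96 for Clic6. It was 0.98 for Folr1, 0.96 for Kl and 0.94 for Otx2, and these 7 values ranked between the first and the 19th place among all genes. Pearson's r on the log2 scale was 0.91 to 0.97. Leaving out the 2 libraries farthest from the median of Ttr gave r of 0.96 to 0.98. Over the 28 pairs of members rho was 0.91 to 0.98, so the agreement was not limited to pairs with Ttr.

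**Figure D2:**
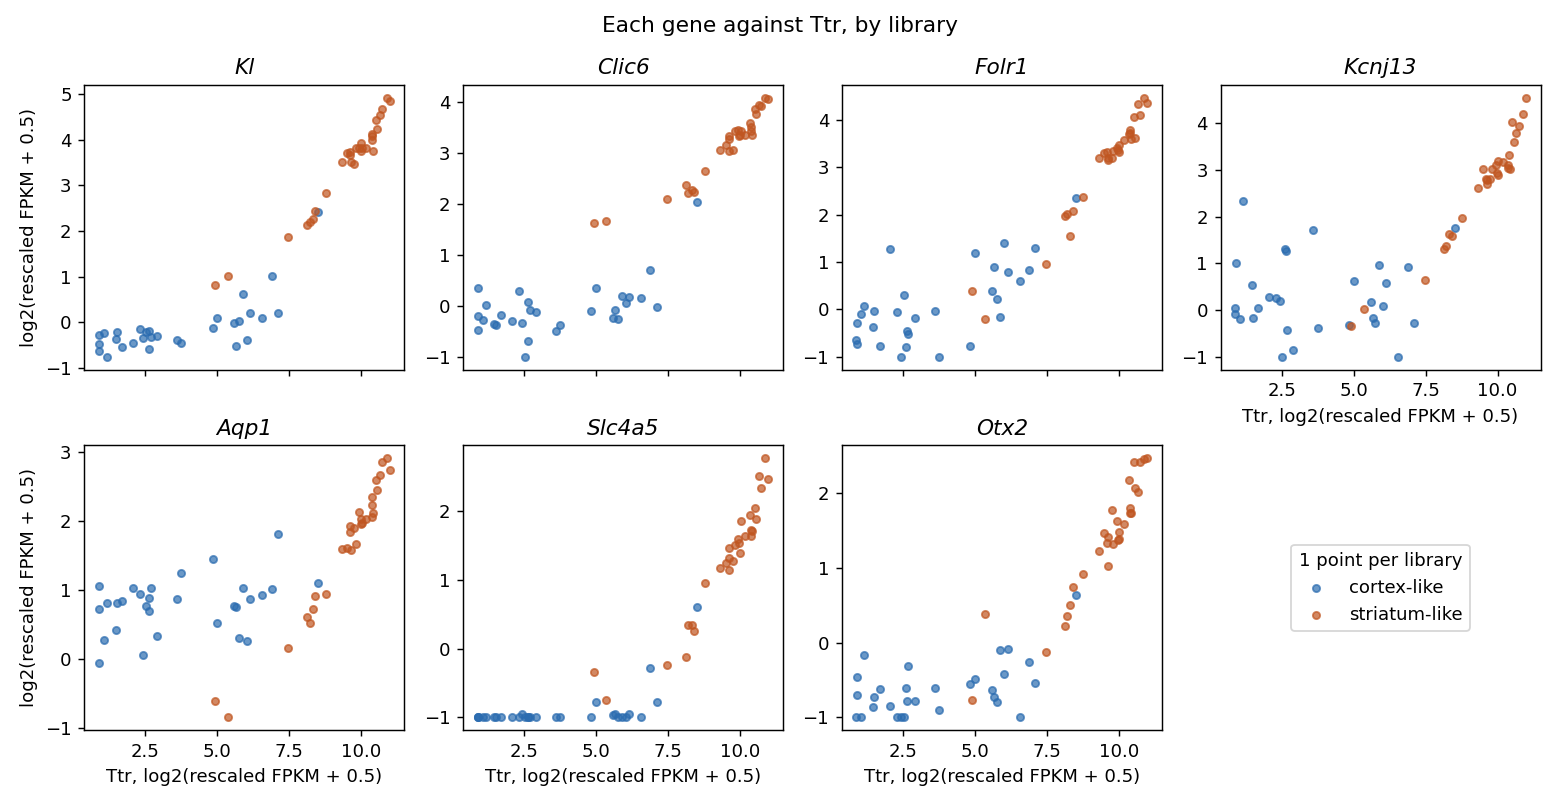
Each member's level against that of Ttr, 1 point per library, both as log2(rescaled FPKM + 0.5), for the cortex-like and striatum-like libraries. Spearman's rho in the striatum-like set is 0.94 (Otx2) to 0.98 (Slc4a5, Folr1, Aqp1), and in the cortex-like set -0.05 (Kcnj13) to 0.67 (Kl).

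The covariation was also measured within each labelled tissue, where each labelled mouse has 1 library. In the 15 striatum-like libraries labelled cortex, 7 of 7 members were called with rho of 0.96 to 0.99 (permutation test, adjusted p = 0.00221 each). In the 15 labelled striatum, 5 of 7 were called with rho of 0.90 to 0.95, whereas Kcnj13 (rho 0.86, adjusted p = 0.0651) and Otx2 (rho 0.78, adjusted p = 0.239) missed the threshold of the permutation test there. With each labelled group centred on its own mean, rho was 0.91 to 0.98 and 7 of 7 were called by the permutation test (adjusted p = 0.0029). All 7 were also called in the KO line alone and without the 2 libraries of lowest Ttr.

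The cortex-like libraries showed no such call, for members or for any other gene. Of 15231 genes tested, 0% were called by the permutation test (918 had an unadjusted p under 0.05, and the smallest adjusted p was 0.305), so 0 of the 5 members tested were called, and 3 of them had an unadjusted p under 0.05. Otx2 and Slc4a5 did not pass the filter on low values. Kl had the highest rho with Ttr of the members, 0.67 (r = 0.70, raw p = 8e-05, adjusted p = 0.406 by permutation), which ranked second of all genes. Slc4a5 (rho 0.58), Folr1 (0.57), Clic6 (0.46), Otx2 (0.42) and Aqp1 (0.34) had lower values, and Kcnj13 had -0.05. Adjusted p-values of the tested members by the permutation test ran from 0.406 to 0.978. Without the 2 libraries farthest from the median of Ttr, r was 0.67 for Kl, 0.55 for Folr1, 0.42 for Clic6, 0.41 for Slc4a5, 0.36 for Otx2, 0.20 for Aqp1 and -0.12 for Kcnj13. The 28 pairs of members had a median rho of 0.38, against 0.96 in the striatum-like set. Whether the 2 sets differ in covariation was not tested.

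By the rank test no relation of Ttr to the depth of a library was called. Its rho with estimated depth was -0.02 in the cortex-like (permutation p = 0.908, r = 0.26) and 0.23 in the striatum-like libraries (permutation p = 0.219, r = 0.26). With the number of entries above 0 it was 0.09 (permutation p = 0.651, r = 0.00) and 0.29 (permutation p = 0.127, r = 0.43). These p-values are those of rho, and the r of 0.43 had an unadjusted permutation p of 0.0154. Without the 2 libraries farthest from the median of Ttr, r was -0.07 and 0.15 with depth and -0.13 and 0.27 with the number of entries. Adjusted over the 6 relations of this kind, Gigyf2 included, no permutation p of rho was below 0.657.

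The proportions to Ttr varied less than the levels over most striatum-like libraries. Per 100 units of Ttr, the median was 1.42 for Kl, 1.02 for Folr1, 0.981 for Clic6, 0.802 for Kcnj13, 0.35 for Aqp1, 0.262 for Otx2 and 0.249 for Slc4a5. In the 28 libraries without the 2 of lowest Ttr, Folr1 stayed between 0.756% and 1.35% of Ttr, Kl between 0.959% and 1.8% and Aqp1 between 0.28% and 0.422%. Kcnj13 (0.558% to 1.13%), Slc4a5 (0.151% to 0.335%), Otx2 (0.194% to 0.349%) and Clic6 (0.711% to 2.12%) were the others, Clic6 having the widest span. In the library of lowest Ttr (29.6), Clic6 rose to 8.76% and Kl to 4.32% of Ttr, while Aqp1 stood at 0.514%. The slope of log2(level + 0.5) on that of Ttr was lowest for Clic6 (0.44) and highest for Kcnj13 (0.77), below 1 for all 7. The added 0.5 flattens low levels more than those of Ttr, so these slopes do not show whether a member changed in proportion. Without it, the highest library was 68.5 times the lowest for Ttr, 126 times for Aqp1 and 78.2 times for Kcnj13. For the other members it was 6.3 times (Clic6) to 65.4 times (Slc4a5).

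**Figure D3:**
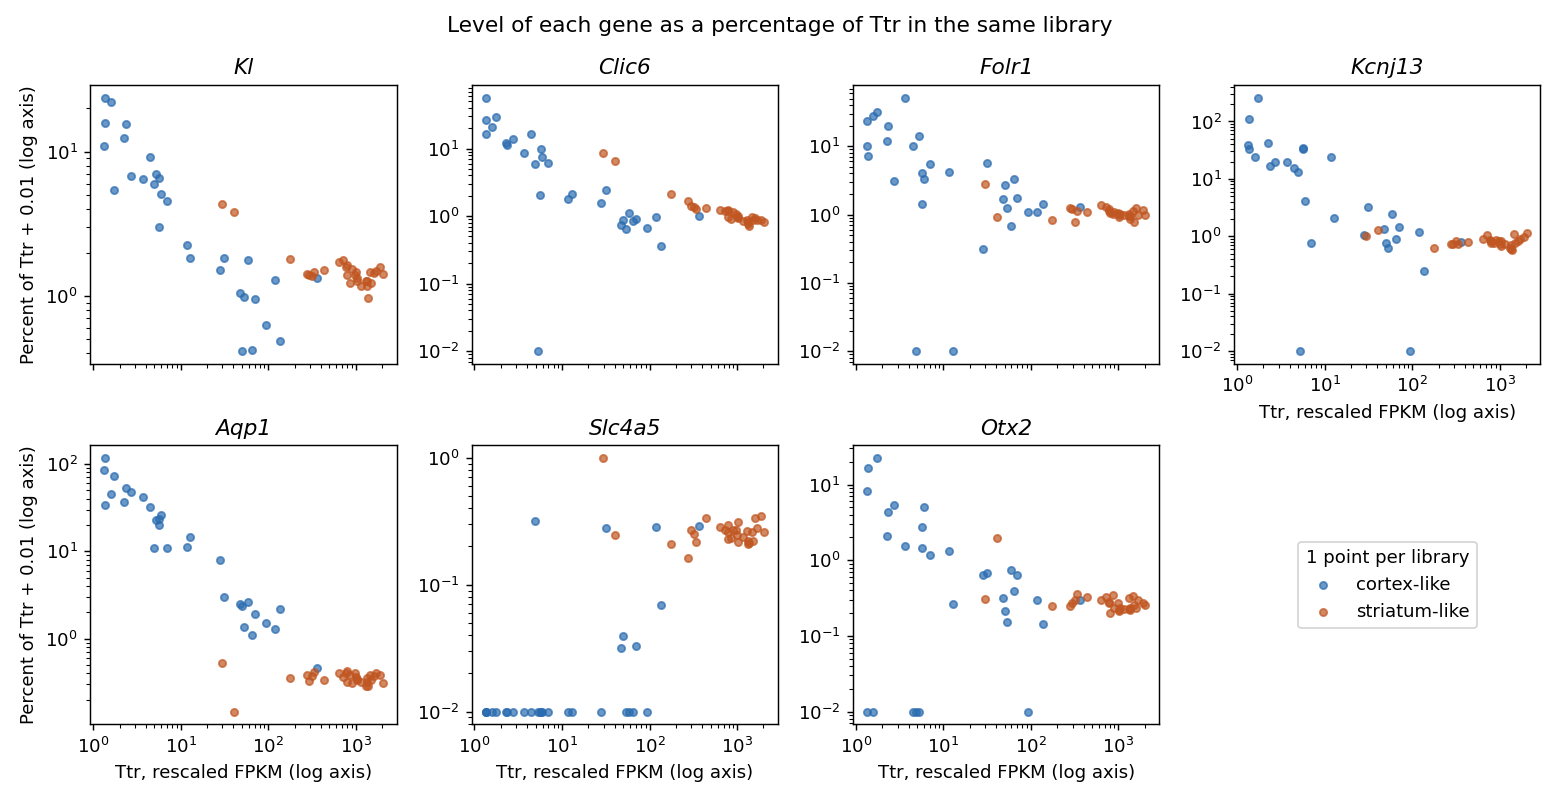
Level of each member as a percentage of Ttr (log axis) against the rescaled FPKM of Ttr (log axis), 1 point per library. Striatum-like libraries gather around the medians of 1.42% (Kl) to 0.249% (Slc4a5), and the cortex-like library with the highest Ttr (364) falls among them for most members.

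The 3 cortex-like libraries of highest Ttr differed in the rest of the programme. In striatum Δ12-line Δ12/+ male 3 (named by its labels) Ttr was at 364, with Kl at 1.33%, Folr1 at 1.26%, Clic6 at 0.991% and Kcnj13 at 0.79% of Ttr. Otx2 (0.29%), Slc4a5 (0.281%) and Aqp1 (0.45%) completed proportions that lay close to the striatum-like medians. This library was the highest cortex-like one in Ttr, Folr1, Clic6, Otx2, Kl and Slc4a5. It also had the highest summed level of 8 striatal neuron markers of the cortex-like set (578, against a median of 141, led by Ppp1r1b), and Drd2 at 18.48 FPKM. The part of striatal tissue in its choroid plexus values was not tested. Male 2 of the same group, with Ttr at 118, had similar proportions for Kl (1.28%), Folr1 (1.08%), Clic6 (0.947%), Otx2 (0.287%) and Slc4a5 (0.273%), but higher ones for Kcnj13 (1.18%) and Aqp1 (1.29%). The library labelled cortex Δ12-line Δ12/Δ12 male 1, with Ttr at 137, was unlike them. There Kl stood at 0.474%, Clic6 at 0.35%, Kcnj13 at 0.243% and Slc4a5 at 0.0593% of Ttr, but Folr1 at 1.43% and Aqp1 at 2.2%.

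Libraries more than 3 scaled median absolute deviations from the median of their set were counted for each member with a deviation above 0, on the log2 scale. In the striatum-like set striatum Δ12-line Δ12/Δ12 female 3 was low in all 8 members, at -6.45 to -3.16 deviations. The library labelled cortex KO-line +/+ female 2 was low in 7 members (all but Otx2), at -6.15 to -3.84. Cortex KO-line KO/+ female 2 was low in 4 members (Folr1, Kcnj13, Kl and Aqp1), and cortex KO-line +/+ females 1 and 3 were low in Kcnj13 and Kl. In the cortex-like set striatum Δ12-line Δ12/+ male 3 was high in Clic6, Otx2 and Kl by 4.27 to 8.98 deviations. Slc4a5 could not be judged in that set, since its deviation was 0, and its highest values there were 1.02 (male 3) and 0.323 (male 2 of the same group). A single member stood out in each of a further 4 cortex-like libraries (Kl, Kcnj13, and Aqp1 in 1 high and 1 low library) and in a further 2 striatum-like ones (Kcnj13 high, Folr1 low). The 2 striatum-like libraries of lowest Ttr had 29.6 and 40.6, against 176 in the next. The 6 highest Ttr values, 1460 to 2030, included all 3 Δ12/Δ12 libraries labelled cortex and female (1460, 1690 and 1880).

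Other genes of the epithelium, from a list of 32, followed Ttr in the striatum-like libraries in the same way. Of the 29 tested, 26 were called by the permutation test (background 1.82%), with a median rho over the list of 0.92 against -0.03 over all genes. Enpp2, which makes lysophosphatidic acid, had a rho of 0.95 with a median level of 227, and Igfbp2, an insulin-like growth factor binding protein, 0.95 with 15.7. Htr2c, a serotonin receptor that neurons also express, had 0.88, Cab39l 0.91 and the carbonic anhydrase gene Car12 0.82. The tight junction gene Cldn2 (0.96) and the retinoid transporter gene Abca4 (0.98) were also called. The ion transporter gene Slc12a2 (rho 0.52, adjusted p = 0.102 by permutation), a further carbonic anhydrase gene, Car14 (0.55, adjusted p = 0.0697) and the anion transporter gene Slc22a8 (0.33, adjusted p = 0.383) were not. In the cortex-like libraries 0 of 16 tested were called by the permutation test (2 at an unadjusted p under 0.05, median rho 0.19). Enpp2 had a rho of 0.67 there (adjusted p = 0.305), although its lowest level was 25.9.

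Markers of neighbouring cell types were measured beside these values. In the striatum-like set 5 of 10 tested ependymal genes were called by the permutation test, Tekt1 (rho 0.85), Spag16 (0.81), Foxj1 (0.76), Mia (0.74) and Rsph1 (0.65). Of 7 tested genes of the leptomeninges 4 were called, Igf2 (0.95), Col1a2 (0.72), Ogn (0.71) and Islr (0.70). Over all tested genes of each list rho ran from 0.02 to 0.85 for ependyma (median 0.57) and from -0.21 to 0.95 for leptomeninges (median 0.70). Igf2 and some cilia genes are also expressed by choroid plexus tissue. The calls were 0 of 8 for endothelium and blood by the permutation test (1 at an unadjusted p under 0.05, median rho 0.05), 0 of 6 for cortical neurons and 0 of 8 for striatal neurons (neither with an unadjusted p under 0.05, median rho 0.07 and -0.27). The summed level ran from 7.52 to 25.0 for ependyma and from 12.3 to 53.3 for leptomeninges, led by Rarres2 and Igf2 (medians 5.01 and 22.7), with no marker at a median of 0. The cortex-like sets were as high, 16.0 to 40.3 and 29.4 to 53.6. The part of these cells in the covariation of the members was not tested.

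By highest rho with Ttr, leaving out the members, the genes most like Ttr in the 30 striatum-like libraries were Abca4 (0.98), 1500015O10Rik (0.97), Wdr86 (0.96), Drc7 (0.96), Cldn2 (0.96) and Igfbp2 (0.95). In the 30 cortex-like libraries they were Calml4 (0.73), Enpp2 (0.67), 1500015O10Rik (0.63), Emp2 (0.59) and Gm7027 (0.58), with adjusted p-values of 0.305 to 0.685 by the permutation test. 1500015O10Rik was in both.

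The labelled genotypes were then compared within each labelled tissue, 6 against 6 libraries, with limma on log2(rescaled FPKM + 0.5) and labelled sex as a covariate. A gene was called at a Benjamini-Hochberg adjusted p under 0.05. Nothing in the labels places the libraries in separate cultures or litters, and the p-values measure only the spread between these libraries. The 2 Δ12-line comparisons of a tissue share their +/+ libraries. Genes, members included, had to reach a mean of 0.5 to be tested, and could reach it through 1 group alone. In the Δ12 line the +/+ mean labelled cortex was below that for Clic6 (0.435), Otx2 (0.108), Kl (0.332) and Slc4a5 (0). Labelled striatum, it was below that for Folr1 (0.483), Clic6 (0.430), Otx2 (0.156), Kl (0.430) and Slc4a5 (0.0141). These members were tested only where the mutant group brought the mean to 0.5. The ranges of both groups overlapped for every member in every comparison.

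**Figure D4:**
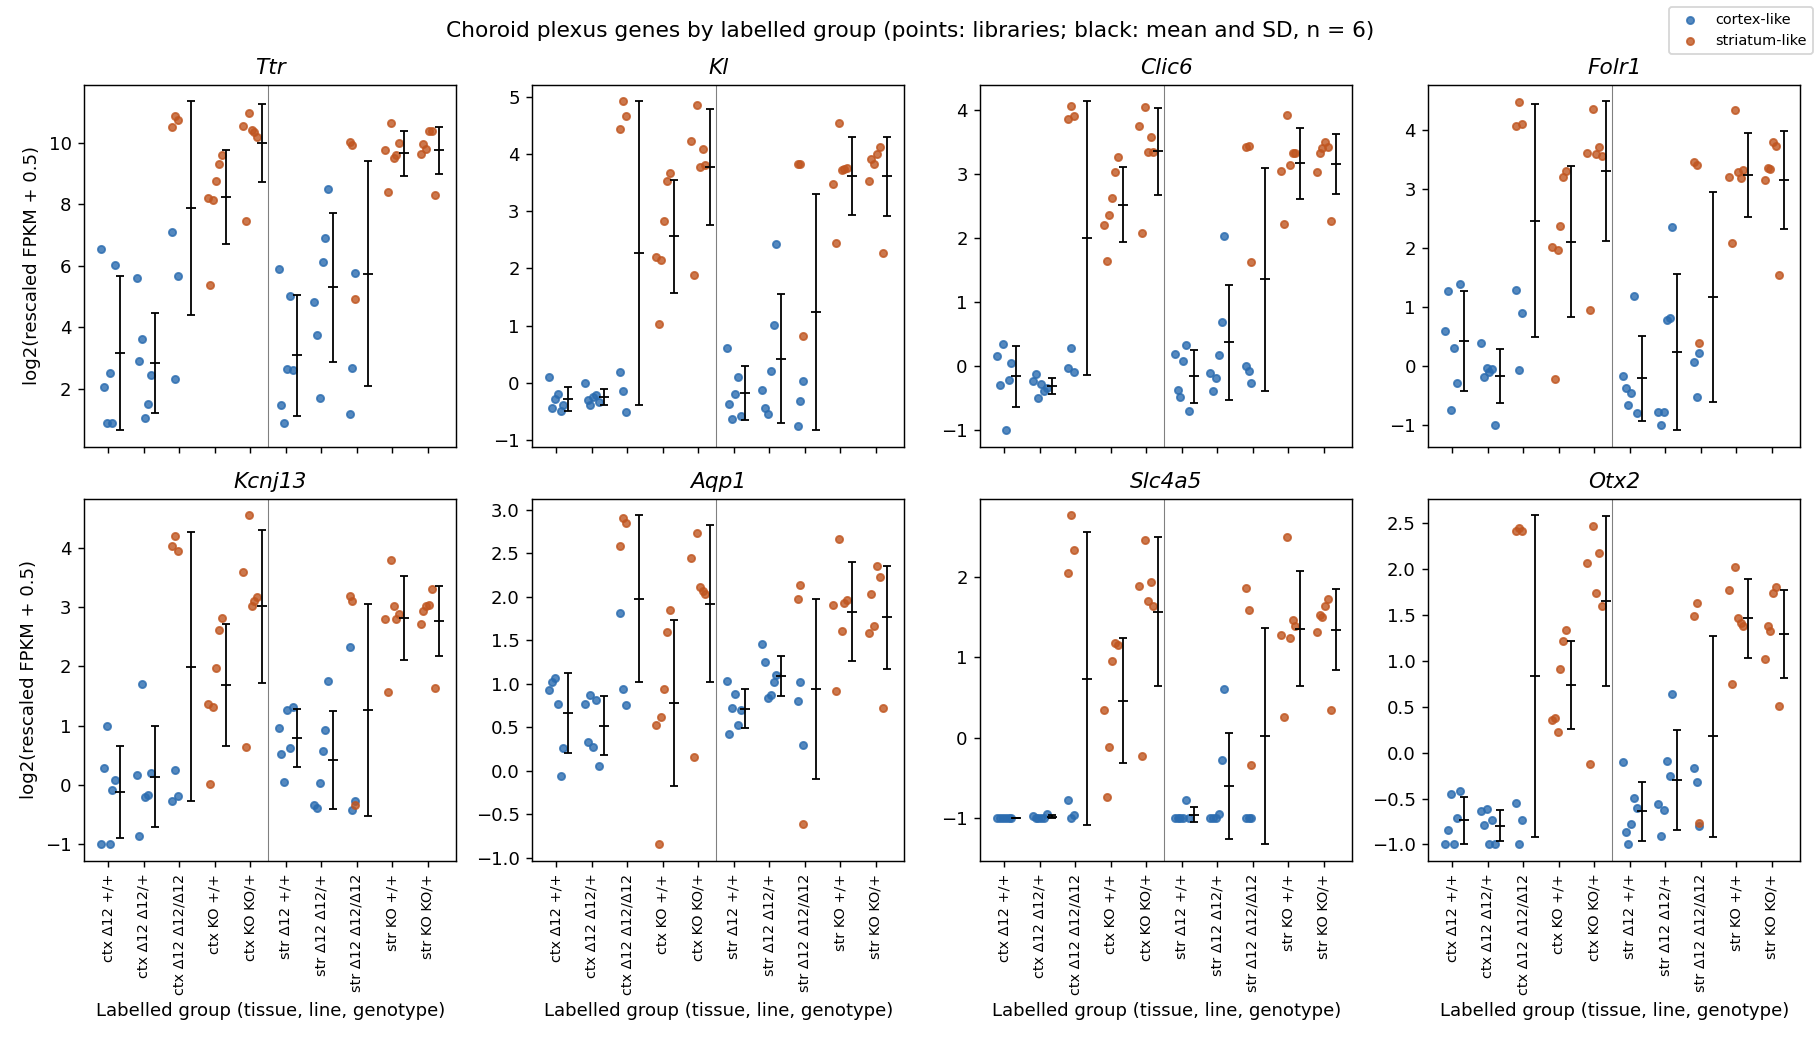
Level of each member, log2(rescaled FPKM + 0.5), by labelled group (ctx, cortex; str, striatum), with 1 point per library coloured by expression-defined tissue and the mean and SD (n = 6) in black. In both Δ12/Δ12 groups the libraries fall into 3 cortex-like and 3 striatum-like ones, which for Ttr in labelled cortex lie at 4.47 to 137 and 1460 to 1880.

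Between Δ12/Δ12 and +/+ libraries labelled cortex, 0.924% of 15696 genes were called by limma, and 1 of 8 members, the water channel gene Aqp1. All 8 members, and 5978 of all genes, had an unadjusted p under 0.05. Of these members Clic6, Otx2, Kl and Slc4a5 passed the filter only through the Δ12/Δ12 group. The 145 genes called became 3844 without +/+ male 2 and 12 without Δ12/Δ12 female 1. The rescaled FPKM of Aqp1 was 1.18, 1.42, 3.00, 5.51, 6.72 and 7.00 in the Δ12/Δ12 libraries and 0.461, 0.701, 1.20, 1.41, 1.53 and 1.59 in the +/+ libraries. The difference was 1.31 ± 0.25 on the log2 scale (SE, limma, adjusted p = 0.0374), with the 3 highest libraries all striatum-like. Ttr was at 4.47, 50.2, 137, 1460, 1690 and 1880 in the Δ12/Δ12 and at 1.36, 1.37, 3.68, 5.26, 64.8 and 93.7 in the +/+ libraries. Its difference of 4.70 ± 1.42 missed the threshold (limma, adjusted p = 0.0697). The other 6 members had positive differences of 1.57 to 2.54 and adjusted p-values of 0.0697 to 0.0717, with Slc4a5 listed at 0 in all +/+ libraries, so that its fitted difference depends on the pseudocount.

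The 3 higher libraries of the Δ12/Δ12 group in every member were those labelled female, which were striatum-like, while all +/+ libraries were cortex-like. With expression-defined tissue as a covariate, Aqp1 differed by 0.84 (limma, adjusted p = 0.534) and Ttr by 1.88 (adjusted p = 0.835). Among the cortex-like libraries alone (3 Δ12/Δ12 and 6 +/+), the differences were 0.84 (limma, adjusted p = 0.916) and 1.88 (adjusted p = 0.95). The cortex-like Δ12/Δ12 libraries were all labelled male, and labelled sex stayed in both fits. The differences therefore set Δ12/Δ12 against +/+ libraries labelled male only, 3 against 3. Both fits give the same differences by construction, since only Δ12/Δ12 libraries were striatum-like, and they are not separate checks. The summed level of striatal neuron markers was 108 to 1560 in the Δ12/Δ12 and 124 to 207 in the +/+ group. That of endothelium and blood markers was 185 to 886 and 646 to 1860.

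Between Δ12/Δ12 and +/+ libraries labelled striatum, 28.3% of 15467 genes were called by limma, and 0 of 8 members (2 at an unadjusted p under 0.05, beside 7477 of all genes). The 4381 genes called became 5 to 33 without any 1 of the 6 libraries labelled female, 3436 to 6208 without any 1 labelled male, and 9 without the sex covariate. Clic6 came nearest, with 0.336, 0.449, 0.506, 2.59, 10.2 and 10.4 in the Δ12/Δ12 libraries and 0.117, 0.218, 0.277, 0.559, 0.645 and 0.764 in the +/+ libraries. Its difference was 1.52 ± 0.56 (limma, adjusted p = 0.0587). Clic6 passed the filter only through the Δ12/Δ12 group, as did Folr1, Otx2, Kl and Slc4a5. Ttr was at 1.74, 5.96, 29.6, 53.6, 978 and 1040 against 1.34, 2.26, 5.66, 5.72, 31.5 and 58.5, a difference of 2.66 ± 1.47 (limma, adjusted p = 0.166). With expression-defined tissue as a covariate the difference was -0.02 for Clic6 and -0.22 for Ttr (limma, adjusted p = 0.996 and 0.973), both of opposite sign. Labelled sex stayed in this fit, so its differences rest on the libraries labelled male only.

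In libraries labelled cortex, the KO/+ values of the members lay above the +/+ values in most libraries, without a call. Here 0.0885% of 15820 genes were called by limma, and 0 of 8 members, of which 7 had an unadjusted p under 0.05, beside 2202 of all genes. Ttr was at 176, 1160, 1310, 1370, 1510 and 2030 in KO/+ and at 40.6, 278, 294, 436, 638 and 778 in +/+. Of the 6 KO/+ libraries, 5 exceeded every +/+ library, and female 2 lay below 5 of the 6. The difference was 1.76 ± 0.66 (limma, adjusted p = 0.271), and the 8 members had positive differences of 0.83 to 1.76 with adjusted p-values of 0.256 to 0.385. Both groups were wholly striatum-like. Summed ependymal markers were 10.9 to 25.0 in KO/+ and 7.52 to 18.2 in +/+, and leptomeningeal markers 18.0 to 53.3 and 12.3 to 25.0. Cortical neuron markers were 20.6 to 92.4 (median 58.3) in KO/+ and 19.8 to 44.2 (median 25.1) in +/+, and striatal neuron markers 1360 to 2280 and 1240 to 1750. Their part in the members' values was not tested.

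Differences of the members between KO/+ and +/+ labelled striatum were at most 0.17 in size on the log2 scale. By limma 6.91% of 15808 genes were called, and 0 of 8 members, none with an unadjusted p under 0.05. Ttr was at 318, 793, 898, 1010, 1330 and 1340 in KO/+ and at 338, 721, 785, 861, 1030 and 1610 in +/+. The difference was 0.10 ± 0.41 (limma, adjusted p = 0.924), and the other 7 members differed by -0.17 to 0.00. Whether the difference of Ttr between KO/+ and +/+ itself differed between the labelled tissues was not tested.

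The Δ12/+ libraries were wholly cortex-like, as were their controls. In libraries labelled cortex 0.0662% of 15095 genes were called by limma, and 0 of the 4 members tested (Ttr, Folr1, Kcnj13 and Aqp1), none with an unadjusted p under 0.05. Ttr was at 1.58, 2.35, 4.91, 6.99, 11.7 and 47.7, within the range of the +/+ libraries, with a difference of -0.31 ± 1.11 (limma, adjusted p = 0.948). In libraries labelled striatum 0.00663% of 15077 genes were called by limma, and 0 of the 6 members tested (all but Otx2 and Slc4a5), of which 2 (Ttr and Aqp1) had an unadjusted p under 0.05. Ttr was at 2.73, 12.9, 28.0, 69.8, 118 and 364 there, with 3 of 6 libraries above the highest +/+ library at 58.5. The difference was 2.22 ± 1.01 and missed the threshold by far (limma, unadjusted p = 0.0495, adjusted p = 1.00).

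**Figure D5:**
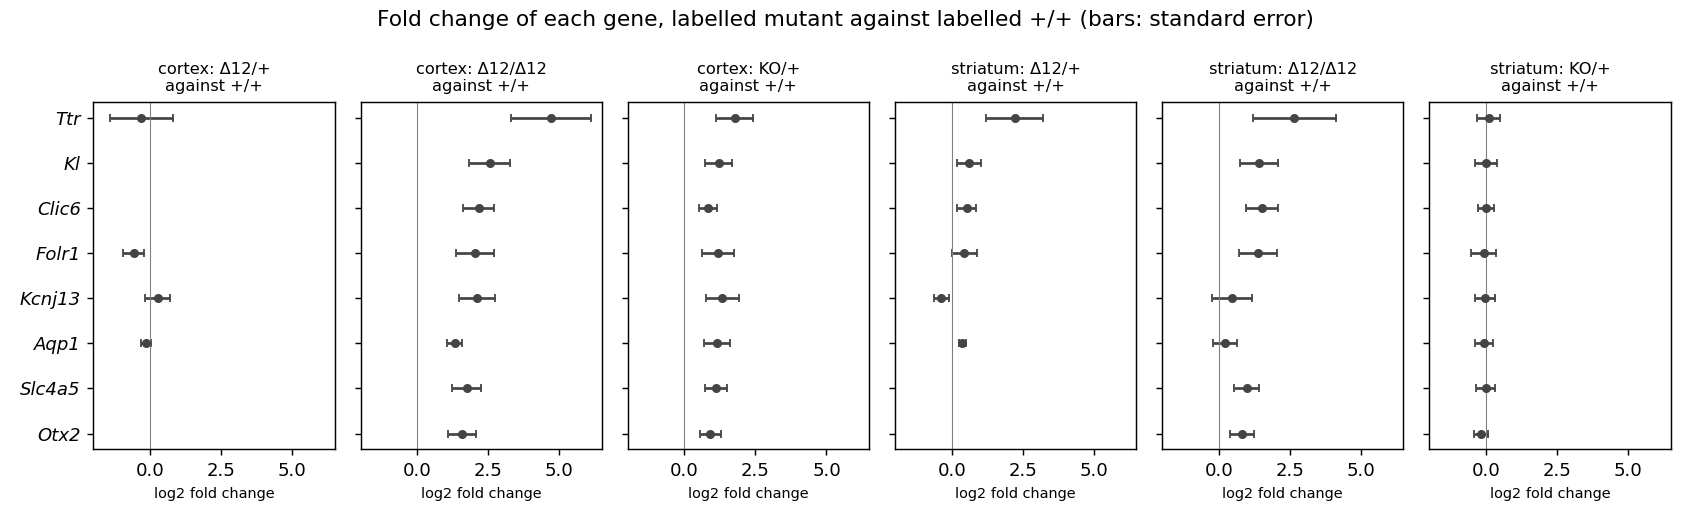
Log2 difference in level between mutant and +/+ libraries with its standard error (limma, 6 against 6 libraries) for each member tested in the 6 comparisons. Only Aqp1 in Δ12/Δ12 labelled cortex (1.31) passed an adjusted p of 0.05, and the differences are largest for Ttr in both Δ12/Δ12 comparisons (4.70 and 2.66).

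The other genes of the epithelium were seldom called between genotypes. Of the 32 listed genes, 0 were called by limma in 4 of the 6 comparisons, with 0 of 16 tested at an unadjusted p under 0.05 in Δ12/+, 21 of 29 in Δ12/Δ12 (5978 of 15696 over all genes) and 23 of 29 in KO/+ labelled cortex (2202 of 15820 over all genes), and 1 of 16 in Δ12/+ labelled striatum. In Δ12/Δ12 labelled striatum 2 of 23 were called higher, Abca4 (0.87 ± 0.27, limma, adjusted p = 0.0415) and Car14 (0.51 ± 0.18, adjusted p just under the threshold), against 28.3% of all genes. Of 29 tested, 1 (Car14) was called lower in KO/+ labelled striatum (-0.45 ± 0.11, limma, adjusted p = 0.0351). This was a similar share to the 538 of 15808 called lower over all genes. Car14 was not called with Ttr. The median difference of the list was 1.24 in Δ12/Δ12 and 0.88 in KO/+ labelled cortex, beside medians of 0.03 and 0.00 over all genes. It was between -0.08 and 0.53 in the other 4 comparisons. Listed genes tested beside Δ12/Δ12 but not beside Δ12/+, Abca4 in labelled striatum among them, passed the filter through the Δ12/Δ12 levels. The Δ12/Δ12 counts and medians of the list are therefore partly set by the filter. The Δ12/Δ12 libraries labelled female were striatum-like, and all +/+ libraries of that line cortex-like.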

How the data were processed

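RNA-Seq was measured in 60 libraries, grouped by their labels into 10 groups of 6. Each library has 1 deposited table of FPKM per gene entry, in which the authors had corrected for length and depth, with confidence bounds. The submitters' processing notes name bcl2fastq 2.20, Trimmomatic 0.30, TopHat2 2.0.14, SAMtools 1.3 and HTSeq 0.6.1p1 and the build GRCm38.p4, with no role for each, and the tables have the layout of Cufflinks output. Library preparation was directional after depletion of rRNA per the labels. The strand setting of the quantification was not given in the sources used here. Of 47597 entries, 23 flagged by the quantification in some library were left out.

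Each library was scaled by its median ratio to the geometric mean over 13235 entries above 0 in all libraries (scale factors 0.761 to 1.38). With no counts deposited, tests used log2(rescaled FPKM + 0.5), on which the change of low genes is understated, and a mean of at least 0.5. Groups were compared with limma 3.58.1 in R 4.3.3. Correlations with Ttr used rank permutation tests (100000 permutations, numpy 2.4.6 and scipy 1.17.1) over all genes in each expression-defined tissue. The call threshold was 0.05 on Benjamini-Hochberg adjusted p-values. Depth was estimated from interval bounds of genes with 1 transcript (2000 nucleotides or longer, with 20 fragments or more) (median 16950000 fragments), and levels of 3 fragments cover counting error only. The named genes are the 8 members, the 6 non-members most like Ttr in each tissue (1 of them is not reported here), the 6 other choroid plexus genes of highest level and the leading gene of each marker list. Slc22a8, Car14 and the called ependymal and leptomeningeal genes were named after their values were seen. Scripts were tested on simulated data. The members and lists were chosen with earlier results of these data known. Alternatives changed the scaling, pseudocount, filter, covariates, weights, threshold or libraries. Title and genotype label disagree on the line of 1 library (striatum KO-line KO/+ female 3), which was kept in the KO line by its genotype label.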

Additional observations from a re-analysis of the deposited data

Results flagged for a closer look

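In each labelled group of 6, the highest and the lowest library of every member were compared with the others on the log2(rescaled FPKM + 0.5) scale by Dixon's ratio of gap to range at its usual critical value for 6 values. Of 79 sets tested, 16 passed it, and chance passes about 1 in 20 sets. The members covary, so that the 16 are not independent, and they come from 4 libraries.

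The library labelled cortex KO-line KO/+ female 2 lay far below the other 5 of its group in 7 members. Its rescaled FPKM was 176 for Ttr (others 1160 to 2030), 1.44 for Folr1 (11.3 to 19.8), 3.74 for Clic6 (9.65 to 16.1) and 3.18 for Kl (13.1 to 28.4). It was 0.416 for Otx2 (2.52 to 5.03), 0.35 for Slc4a5 (2.62 to 5.04) and 0.612 for Aqp1 (3.59 to 6.15).

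The library labelled striatum KO-line KO/+ male 3 lay far below its group in 6 members. It had 318 for Ttr (others 793 to 1340), 2.41 for Folr1 (8.33 to 13.3), 2.6 for Kcnj13 (6.04 to 9.44) and 4.31 for Clic6 (7.73 to 10.8). Kl stood at 4.33 (11.0 to 17.0) and Slc4a5 at 0.774 (1.99 to 2.82).

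The library labelled cortex KO-line +/+ female 2 lay far below its group in Ttr, at 40.6 (others 278 to 778). At low levels, the library labelled striatum Δ12-line +/+ male 2 lay far above its group in Folr1, at 1.79 (0.0792 to 0.395), and in Slc4a5, at 0.0848, with the others listed at 0. With 5 values at 0 the ratio is 1 for any other value, so that the last of these says nothing. Values are printed as rescaled FPKM. The causes were not tested.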

How the results depend on the processing

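The count of members called in Δ12/Δ12 against +/+ labelled cortex, 1 of 8 by limma, depended on the processing. It was 0 with quantile normalization (Aqp1 adjusted p = 0.0506), without a filter on low values, without the sex covariate, with array weights, with expression-defined tissue as a covariate, among the cortex-like libraries alone and with the replicate block, and 8 at an adjusted p under 0.1. Leaving out 1 library at a time gave 0 to 6. It gave 6 without +/+ male 2, and 0 without +/+ male 3, +/+ female 1, 2 or 3, Δ12/Δ12 male 1 or Δ12/Δ12 female 1, 2 or 3. In Δ12/Δ12 against +/+ labelled striatum, the count of 0 became 6 with array weights and 2 at an adjusted p under 0.1. It was 0 to 2 with 1 library left out, namely 1 without +/+ male 1, 2 without +/+ male 2, and 1 without Δ12/Δ12 male 1 or male 3. The causes were not tested. The other 4 comparisons had 0 members called by limma under every alternative run, with 1263, 2202, 486 and 3449 genes at an unadjusted p under 0.05 (Δ12/+ and KO/+ labelled cortex, Δ12/+ and KO/+ labelled striatum).

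The replicate block also lowered the genes called from 10 to 3, 145 to 9, 14 to 0, 1 to 0, 4381 to 5 and 1093 to 302 (Δ12/+, Δ12/Δ12 and KO/+ labelled cortex, then striatum). Same-numbered libraries did not deviate together: over 6 pairs per comparison the correlations ran from -0.21 to 0.09, and none was over 0.1. At most 2 of 6 controls correlated best with their own number. The deviations were taken from means by labelled group and sex. Labelled sex matched expression in only 30 of 60 libraries, so this check cannot exclude pairing by litter. The paper states that littermates were compared. On the FPKM as deposited, calls in KO/+ labelled striatum were 23 higher and 283 lower in place of 555 and 538, and in Δ12/Δ12 labelled striatum 1291 and 3045 in place of 2278 and 2103. Calls in KO/+ labelled cortex rose to 110. With quantile normalization they were 68 higher and 46 lower in Δ12/Δ12 labelled cortex in place of 43 and 102, and 23 and 9 in Δ12/+ labelled cortex in place of 2 and 8. With array weights they were 10366 in Δ12/Δ12 labelled striatum. Leaving out 1 library gave 12 to 3844 genes called in Δ12/Δ12 labelled cortex, 5 to 6208 in Δ12/Δ12 labelled striatum, 5 to 41 in Δ12/+ and 1 to 19 in KO/+ labelled cortex, and 1 to 2 in Δ12/+ and 560 to 1243 in KO/+ labelled striatum.

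Alternatives of the correlation with Ttr left 5 to 7 members called in the striatum-like and 0 in the cortex-like libraries. Those without the 2 libraries of lowest Ttr, with the KO line only, without striatum Δ12-line Δ12/+ male 3 and without cortex Δ12-line +/+ female 1 were chosen after seeing the data. In the cortex-like libraries Slc4a5 and Otx2 lay near the level of a few fragments, at which detection is limited by depth.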
